A study of Drosophila melanogaster with 2 samples.

Results

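The proteasome is the large protease that degrades ubiquitin-tagged proteins, and the messenger RNAs of its subunits were measured in adult fruitflies. Its core particle is a barrel of stacked rings, alpha subunits outside and beta subunits inside, and the proteolytic sites are on Prosbeta1, Prosbeta2 and Prosbeta5. The regulatory particle caps the barrel and has a base and a lid. The base holds the Rpt ATPases, which unfold the substrate, and the lid holds Rpn11, which removes the ubiquitin chain. In Drosophila melanogaster several subunits also have duplicated genes, of which Prosalpha3T, Prosalpha4T1, Prosalpha4T2 and Prosalpha6T are known from the male germ line.

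Of the 17698 genes in the mRNA table, 48 were taken as proteasome genes. They are those whose FlyBase symbol begins with Prosalpha or Prosbeta, or with Rpn or Rpt followed by a digit. A gene with T or R after its subunit number was called a paralogue (16 genes), and the others were called standard subunits (32 genes, 14 in the core and 18 in the regulatory particle). The library was made from total RNA of adult Drosophila melanogaster, 1 library without a replicate and without a treatment, and a second library of the series holds small RNA. The labels state neither strain nor sex nor the number of flies, and they name no dissected tissue. The unit is TPM, a relative abundance that allows for the depth of the library and the length of the transcript. TPM was summed over the transcripts of each gene, and intervals are exact 95% Poisson intervals of the gene's count, which cover counting error only. No test across genes was made, since genes are not replicates.

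The library held 26179479 counts, and 16048 genes had at least 1. Messenger RNA of both male and female reproductive organs was present. The testis and sperm list ranged between 1.46 and 933.87 TPM (20 of 20 genes measured, summed level 4483 TPM, none at 0). The accessory gland list ranged between 334.36 and 3230 TPM (7 of 7 genes), and the ovary and egg list between 3.16 and 5775 TPM (13 of 14 genes). Muscle, gut, and neuron and eye genes were also present. The muscle genes Tm2, Mhc and Act88F stood at 249.42, 229.72 and 23.56 TPM, and the gut genes alphaTry and betaTry at 510.8 and 93.5 TPM. Of neuron and eye genes, ninaE stood at 1671, nSyb at 55.67 and elav at 4.82 TPM. The level of elav was below the median over all genes, 11.7 TPM. The library thus held messengers of several organs, and in such a mixture fewer cells of a type and less RNA per cell cannot be told apart.

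Paralogues were messengers of moderate level and standard subunits were abundant ones. The median was 17.2 TPM over the 16 paralogues and 239 TPM over the 32 standard subunits, against 11.7 TPM over all genes in the table. Without Prosalpha1R the paralogues ranged between 6.67 TPM for Prosbeta5R2 and 41.7 TPM for Prosbeta4R2, which is above 43.4 to 73.4% of the genes. Standard subunits lay between 132.1 TPM for Prosalpha1 and 369.23 TPM for Prosalpha2, above 93.0 to 97.9% of the genes, and their median was 20.5-fold that of all genes. Together the 48 genes held 0.855% of the summed TPM and 0.696% of the counts.
At or above 1 TPM were 48 of 48 proteasome genes, against 75.9% of all genes. At or above 10 TPM were 45 of 48 (93.8%), against 51.9% of all genes. The 3 below 10 TPM were Prosalpha3T, Rpt4R and Prosbeta5R2, at 8.19, 7.64 and 6.67 TPM, and Prosalpha4T1 was just above, at 10.8 TPM. At or above 100 TPM were 33 of 48 (68.8%), against 9.91% of all genes. These were Prosalpha1R and the 32 standard subunits, and no proteasome gene lay close to this level, with Prosalpha1 at 132.1 TPM above it and Prosbeta4R2 at 41.7 TPM below it.

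**Figure D1:**
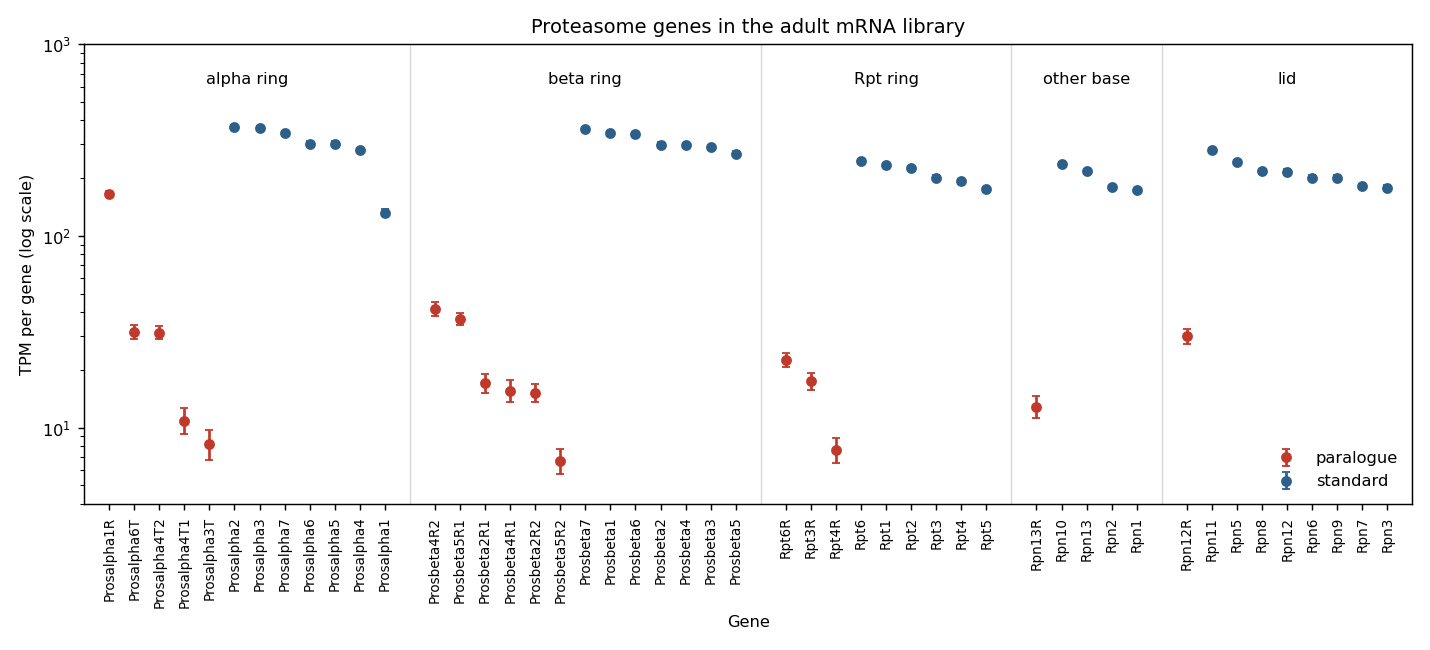
TPM per gene (log scale) of the 48 proteasome genes in the adult mRNA library, by part of the complex, with paralogues in red left of standard subunits in blue; bars are exact 95% Poisson intervals of the counts, often smaller than the points. All paralogues but Prosalpha1R sit at 41.73 TPM or lower, and standard subunits sit between 132.1 and 369.23 TPM.

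Within the alpha ring, which gates the entrance of the barrel, 6 of the 7 standard subunits were close to each other. Prosalpha2 was highest, at 369.23 TPM (359.72 to 378.92), followed by Prosalpha3 at 365.79 TPM (356.60 to 375.16), and the 2 intervals overlap. Prosalpha7 stood at 341.57, Prosalpha6 at 302.51, Prosalpha5 at 301.89 and Prosalpha4 at 279.92 TPM. The highest of these 6 was 1.32-fold the lowest. Prosalpha1 was set apart at 132.1 TPM (126.58 to 137.79), and its copy Prosalpha1R is described below.
The beta ring had a similar level and no gene set apart. Prosbeta7 was highest at 361.11 TPM (352.22 to 370.17), and Prosbeta5, the subunit with the chymotrypsin-like site, was lowest at 267.93 TPM (260.66 to 275.35). The other subunits with a proteolytic site lay between them, Prosbeta1 (caspase-like site) at 344.16 TPM and Prosbeta2 (trypsin-like site) at 299.11 TPM. Prosbeta6, Prosbeta4 and Prosbeta3, which have no proteolytic site, stood at 337.48, 295.98 and 289.12 TPM. The medians of the rings were 303 TPM for alpha and 299 TPM for beta.

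In the regulatory particle the levels of the standard subunits were lower, between 172.27 and 279.45 TPM. The lid subunit Sem1, whose symbol is outside the rule, is not among them and stood at 430.83 TPM. Among the 6 Rpt ATPases, Rpt6 was highest at 244.95 TPM (238.69 to 251.33) and Rpt5 lowest at 174.57 TPM (169.67 to 179.58). Rpt1, Rpt2, Rpt3 and Rpt4 lay between them, at 233.58, 225.66, 201.18 and 192.48 TPM. Of the other base subunits, the ubiquitin receptor Rpn10 was highest at 236.19 TPM, and Rpn13, another ubiquitin receptor, stood at 217.79 TPM. The large scaffold subunits Rpn2 and Rpn1 stood at 178.52 and 172.27 TPM, and Rpn1 was the lowest of the regulatory particle. Of the 8 lid subunits within the rule, the deubiquitinase Rpn11 was highest at 279.45 TPM (272.24 to 286.80). Rpn3 was lowest at 178.08 TPM (173.22 to 183.04). Rpn8, the partner of Rpn11, was lower at 217.51 TPM, and Rpn5, Rpn12, Rpn6, Rpn9 and Rpn7 stood at 242.28, 215.07, 201.08, 200.58 and 180.87 TPM. The median was 209 TPM in the base (10 genes) and 208 TPM in the lid (8 genes), a ratio of 1.01. It was 0.878 among genes on the plus strand of the genome and 1.10 among those on the minus strand.

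Core subunits were more abundant per transcript length than the regulatory subunits within the symbol rule. The median was 302.2 TPM in the core (14 genes) and 208 TPM in the regulatory particle (18 genes), a ratio of 1.45. Of the 14 core subunits, 12 lay above Rpn11, the highest of the 18 regulatory genes, and the exceptions were Prosbeta5 and Prosalpha1. The lid subunit Sem1, outside the rule, was above all 14 core subunits, at 430.83 TPM. Of the 18 regulatory subunits, 17 lay below Prosbeta5, the lowest of the core besides Prosalpha1, and Rpn11 was the exception. Near Rpn11, at 279.45 TPM (272.24 to 286.80), these orders are within counting error. The intervals of Prosalpha4 at 279.92 TPM (272.61 to 287.38) and of Prosbeta5 (260.66 to 275.35) both overlap it. So do those of Prosbeta3 at 289.12 TPM (280.71 to 297.72) and, barely, of Prosbeta4 at 295.98 TPM (286.72 to 305.46).
The lengths of the messengers differed in the same way. The transcript length implied by a gene's count and FPKM had a median of 994 bases in the core (793 to 1206). Over the 18 regulatory genes it was 1498 bases (1022 to 3460), and Rpn12 was the 1 of these not longer than the longest core gene. Implied lengths are approximate and can exceed the span of a gene, as for Rpn12 at 1022 bases against a span of 995. Sem1, outside the rule, was not included. Its gene, at 7063986 to 7064467 on chromosome arm 2L, is shorter than any of the core lengths. The reads per gene, before division by length, had medians of 5234.5 in the core and 5386 in the regulatory particle, a ratio of 0.972. Across the 32 standard subunits, TPM and length had a Spearman coefficient of -0.70. Within the particles it was -0.22 over the 14 core genes and -0.44 over the 18 regulatory genes. These points share 1 library, and TPM is itself divided by length. Among genes with an implied length of 1000 to 1300 bases alone, a window chosen after the values had been seen, the ratio was 1.22. It rests on 6 core genes against Rpn11 and Rpn12, and by its span Rpn12 would fall outside the window. With so little overlap among the genes of the rule, particle and transcript length cannot be told apart.

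**Figure D2:**
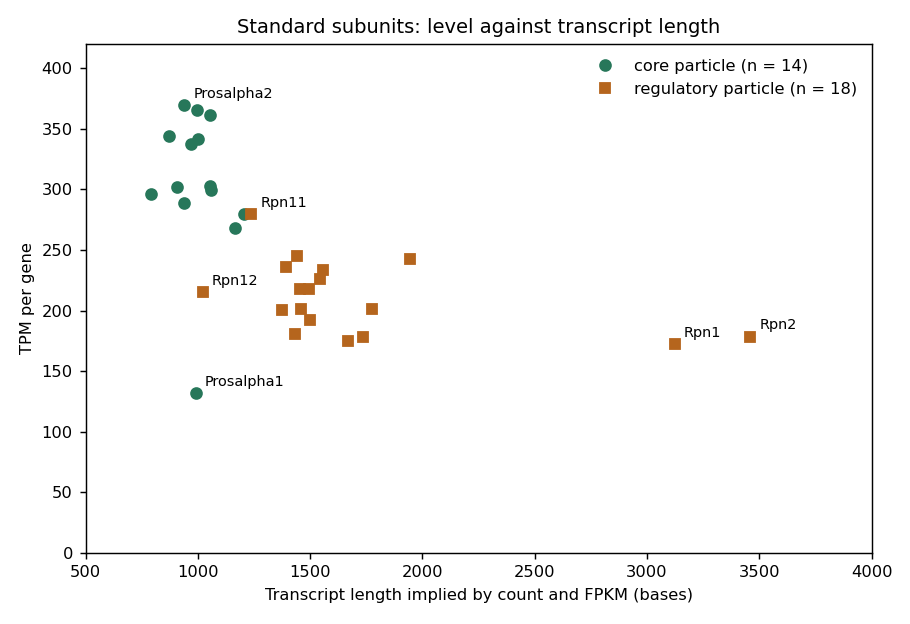
TPM per gene of the 32 standard subunits (1 point each) against the transcript length in bases implied by count and FPKM, with the 14 core genes as circles and the 18 regulatory genes as squares. Core genes cluster near 994 bases and 302.2 TPM, and regulatory genes near 1498 bases and 208 TPM. Rpn12 is the 1 of the 18 regulatory genes shown within the length range of the core.

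Paralogues were found for 12 of the 32 standard subunits, 7 in the core with 11 paralogues and 5 in the regulatory particle. Of the 16 paralogues, 15 were less abundant than their standard subunit, by 7.09-fold for Prosbeta4R2 to 44.7-fold for Prosalpha3T. The median paralogue reached 7.26% of its standard subunit, or 5.88% without Prosalpha1R. The mean over all 16 was 15.1%, since it takes in Prosalpha1R, listed at 125% of Prosalpha1, a value described below as uncertain. The median was 5.46% for the other 10 core paralogues and 8.65% for the 5 regulatory ones. These shares rest on 124 to 690 counts per paralogue, apart from Prosalpha1R with 2658.

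Among the alpha paralogues, Prosalpha6T had 31.5 TPM, against 302.51 TPM for Prosalpha6, which is 10.4% (9.52 to 11.4%). Prosalpha4 has a pair of paralogues. Prosalpha4T2 stood at 31.3 TPM and Prosalpha4T1 at 10.8 TPM, against 279.92 TPM for Prosalpha4, or 11.2% (10.3 to 12.1%) and 3.86% (3.28 to 4.51%). Prosalpha4T2 was thus 2.89-fold Prosalpha4T1 (2.43 to 3.46). Prosalpha3T was the lowest of all paralogues relative to its standard subunit, with 8.19 TPM against 365.79 TPM for Prosalpha3, or 2.24% (1.86 to 2.67%).
The beta paralogues belong to the subunits Prosbeta2 and Prosbeta5, which cut proteins, and to Prosbeta4, which does not, and each has a pair. Prosbeta2R1 and Prosbeta2R2 stood at 17.0 and 15.1 TPM, against 299.11 TPM for Prosbeta2, or 5.68% and 5.05%. Their ratio of 1.13 had an interval of 0.962 to 1.32, so that no difference between them was detectable at this depth. Prosbeta4R2 and Prosbeta4R1 lie 1467 bases apart on the plus strand of chromosome arm 2L. Prosbeta4R2 had 41.7 TPM and Prosbeta4R1 15.5 TPM, against 295.98 TPM for Prosbeta4, or 14.1% and 5.24%. Prosbeta4R2 was thus 2.69-fold Prosbeta4R1 (2.30 to 3.16). The pair of Prosbeta5 differed most, with Prosbeta5R1 at 36.9 TPM and Prosbeta5R2 at 6.67 TPM, against 267.93 TPM for Prosbeta5, or 13.8% and 2.49%. Prosbeta5R1 was 5.53-fold Prosbeta5R2 (4.67 to 6.57).
In the regulatory particle, Rpn12R in the lid had 29.9 TPM, against 215.07 TPM for Rpn12, or 13.9% (12.6 to 15.3%). Rpn13R, a paralogue of a ubiquitin receptor, had 12.8 TPM, against 217.79 TPM for Rpn13, or 5.88%. Of the ATPases, Rpt6R had 22.5 TPM, against 244.95 TPM for Rpt6, or 9.19% (8.41 to 10.03%). Rpt3R had 17.4 TPM, against 201.18 TPM for Rpt3, or 8.65%. Rpt4R had 7.64 TPM, against 192.48 TPM for Rpt4, or 3.97% (3.40 to 4.61%).

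**Figure D3:**
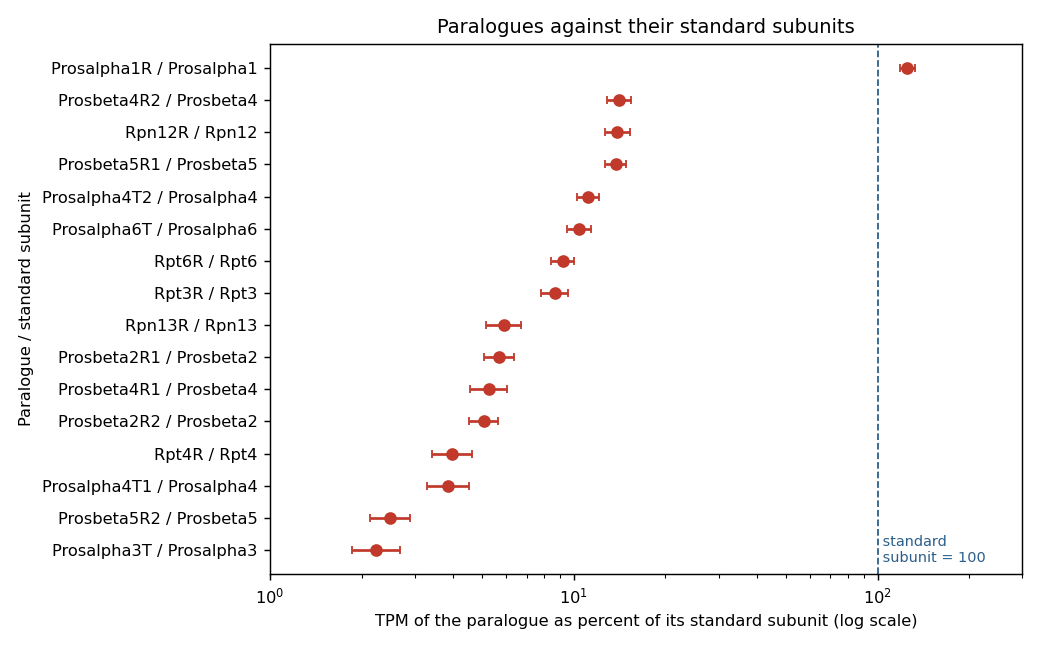
TPM of each of the 16 paralogues as percent of its standard subunit (log scale), with exact 95% intervals from the 2 counts of each pair; the dashed line is the standard subunit. Prosalpha1R lies at 125%, and the other 15 paralogues lie between 2.24% and 14.1%.

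Prosalpha1R was listed at a higher level than Prosalpha1. It had 165.67 TPM (159.43 to 172.09) from 2658 counts, against 132.1 TPM for Prosalpha1 from 2158 counts, or 125% (118 to 133%). Both genes lie on the minus strand of chromosome arm 2R, Prosalpha1R at 7830413 to 7831771 and Prosalpha1 at 7827303 to 7828678, with 1734 bases between them. The sequences of the copies were not compared here, and reads that fit both could have been split between them by the authors' counting, so each single value is uncertain. The sum of both was 297.77 TPM, within the range of the other 6 alpha subunits, 279.92 to 369.23 TPM. When paralogues were added to their standard subunits, the 14 core subunits ranged between 289.12 and 373.98 TPM, which is 1.29-fold. Standard genes alone ranged 2.80-fold. The SD of log2(TPM) over the 14 was 0.12 with paralogues added and 0.37 without, and 0.16 without Prosalpha1. Paralogues made up 16.2% of the summed level for Prosbeta4, 13.98% for Prosbeta5, 13.1% for Prosalpha4, 9.69% for Prosbeta2, 9.43% for Prosalpha6 and 2.19% for Prosalpha3. For Prosalpha1 the listed share was 55.6%. It may depend on how reads were assigned between the copies, which was not tested, and it is not ranked with the others.

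**Figure D4:**
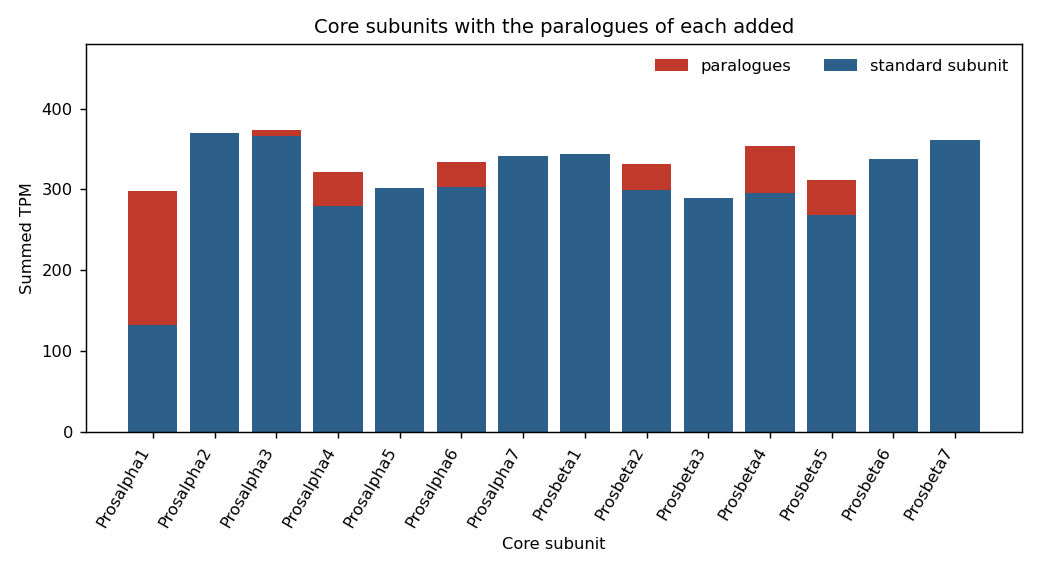
Summed TPM of each of the 14 core subunits, with the paralogues of each (red) stacked on the standard subunit (blue). With paralogues added, the subunits lie between 289.12 and 373.98 TPM, and the split shown for Prosalpha1 is uncertain, since reads could have been divided between its 2 copies.

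The name testis-specific, which some of these paralogues carry, could not be checked in 1 library of adults for which no dissected tissue is named. Testis messengers were present, and the 15 paralogues other than Prosalpha1R were in the low part of that list. Of its 20 genes, 14 were above the highest of these paralogues, 3 were within their range and 3 were below. The sperm genes Mst87F and Mst98Ca stood at 933.87 and 417.71 TPM, the germ line tubulin betaTub85D at 297.49 TPM, and the mitofusin fzo at 17.6 TPM, close to the paralogue median. The regulators of spermatocyte transcription mia, sa, nht, aly and can stood at 15.5, 7.65, 2.77, 2.14 and 1.46 TPM. The part of testis RNA in the level of the paralogues was not tested.

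Most proteasome genes had 1 transcript that carried nearly all of their level. The 48 genes had 76 annotated transcripts, 27 genes had 1, and of the other 21 the leading transcript held at least 87.0% of the gene's TPM in all but 3. These were Rpn13, Rpn2 and Rpn6, all of the regulatory particle. Rpn13 was spread over 6 transcripts, and the leading one, FBtr0087611, had 106 TPM or 48.7%. Rpn2 had 3 transcripts at 92.1, 50.1 and 36.3 TPM, and Rpn6 had 3 at 110, 73.6 and 17.7 TPM. With the leading transcript in place of the sum, Rpn13R was at 12.1% of Rpn13. Prosbeta5R2 was listed with all of its 174 counts on the longer of its 2 transcripts and with 0 on the shorter.
Overlapping genes may limit some values. Overlaps were taken between whole gene spans, introns included, and whether exons are shared was not examined. Reads in an exon shared on the same strand would fit both genes whether or not strand was used. For opposite strands no source says whether the counting used strand. Of the 48 genes, 22 overlap another gene of the table, and 5 do so over more than 90% of their span. Rpn13R lies within rg (12.03 TPM) on the same strand, Rpn12R within Sytbeta (4.13 TPM) on the same strand, and Rpt1 within CG17985 (28.2 TPM) on the same strand. Prosalpha4T1 lies opposite CG42322 (15.7 TPM) and Rpt6 opposite CG1801 (6.62 TPM).

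The genes of the complex are dispersed over the genome. Of the 16 paralogues, 5 lie on chromosome arm 3R, 4 on 2L, 3 on 2R, 2 on 3L and 2 on X. The standard subunits lie on 2R (10), 3R (9), 3L (5), 2L (4) and X (4). In 6 of the 16 pairs the paralogue is on the arm of its standard subunit. The closest neighbours of different subunits were Rpn9 and Rpt5, 19413 bases apart on 3R, and Rpn12 and Prosbeta6, 25377 bases apart on 3L. By strand, the standard subunits had medians of 242 TPM on the plus strand (17 genes) and 234 TPM on the minus strand (15 genes).

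Other complexes were set beside the proteasome for the spread of their subunits. The SD of log2(TPM) was 0.38 over the 32 standard subunits, or 0.53 with the leading transcript alone. With Prosalpha1 and Prosalpha1R summed it was 0.35. It was 0.20 within the regulatory particle and 0.37 within the core, or 0.16 in the core without Prosalpha1, whose level is uncertain. For other complexes the SD was as follows. It was 0.30 over the 8 subunits of the chaperonin, which folds actin and tubulin, and 0.41 over 68 cytosolic ribosomal proteins. Over all 48 proteasome genes it was 1.86, and over the 32 genes of the vacuolar proton pump, which like the proteasome has paralogues, it was 2.48. In level, the standard proteasome subunits had a median of 239 TPM, against 296 TPM for the chaperonin and 2277 TPM for ribosomal proteins. With paralogues included, the median of all 48 proteasome genes was 201 TPM, against 35.1 TPM for the vacuolar pump genes. These spreads are across genes of 1 library, and their differences were not tested.

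Genes that work with the proteasome spanned a wider range, 14.3 to 2755 TPM. Of a list of 21, 18 were measured, and 3 (PA200, TER94 and Fub1) were not analysed here. The median was 202 TPM, and 15 of the 18 were at or above 100 TPM, against 9.91% of all genes. Sem1, a small lid subunit whose symbol is outside the rule, stood at 430.83 TPM, above all proteasome genes of the rule. Pomp, the assembly factor of the core, stood at 223.72 TPM. Of factors that bind the core, REG, a ring-shaped activator, stood at 195.93 TPM and PI31 at 131.61 TPM. The deubiquitinases Usp14 and Uch-L5, which act on the regulatory particle, stood at 201.13 and 189.76 TPM. Uch-L5 also has a paralogue, and Uch-L5R had 14.3 TPM, which is 7.54% of Uch-L5 (6.70 to 8.46%). The shuttle proteins Rad23, Ubqn and rngo, which bring ubiquitin-tagged proteins to the proteasome, stood at 230.74, 202.33 and 114.19 TPM.
Upstream, the ubiquitin-activating enzyme Uba1 stood at 283.15 TPM. The ubiquitin genes were more abundant than any proteasome gene of the rule, with the polyubiquitins Ubi-p5E and Ubi-p63E at 594.87 and 473.13 TPM. RpS27A and RpL40, which encode ubiquitin fused to a ribosomal protein, stood at 2755 and 2346 TPM. The transcription factor cnc and its partner maf-S, known as activators of proteasome genes under stress, stood at 116 and 95.3 TPM, and the N-glycanase Pngl stood at 50.8 TPM. Pngl, maf-S and Uch-L5R were the 3 of the list below 100 TPM.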

How the data were processed

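One mRNA library of adult fruitflies was used, and no value of the small RNA library was. For the series the submitters' processing notes name CASAVA and HISAT2. The counter, the build and the gene models were not given in the sources used here. Counts, TPM and FPKM per transcript were deposited by the authors. The deposited counts are whole numbers and were taken as rounded expected counts. FPKM made by the authors was proportional to their deposited TPM (ratio 0.6291 to 0.6297 from 10 TPM upwards) and gave, with the counts, the implied length. TPM was summed per gene over 34736 transcripts. Symbols were found for 17559 of 17698 genes. Start and end of 48 of 48 proteasome genes were those of RefSeq for Release 6. At this depth 3 reads on 1000 bases equal 0.182 TPM.

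Proteasome genes and lists were chosen with earlier results of these data known. Named were all paralogues with their standard subunits, the extremes of each part of the complex, genes nearest 1, 10 and 100 TPM, genes whose leading transcript held under 80%, and the list of related genes. The other subunits and the marker genes named singly were added after their values had been seen. ProtA and ProtB were read for Mst35Ba and Mst35Bb, and nos was not analysed here. Ribosomal proteins were the RpL, RpS and RpLP symbols without a suffix other than A. Planned promoter motifs were not analysed here, as no sequence was used. Ratios have exact conditional binomial intervals (SciPy 1.17.1, Python 3.11.15). The intervals were tested only on counts simulated with Poisson error, the model they assume. That test checks the code and cannot show how they hold for reads shared between genes. Alternatives were FPKM, the leading transcript alone, transcripts under 10 counts set to 0, the mean, each strand alone and rescaling without the 100 most abundant other genes.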

Additional observations from a re-analysis of the deposited data

How the results depend on the processing

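No paired analysis was possible because there is 1 library and its labels carry no replicate number, and no replicate could be left out. With transcripts under 10 counts set to 0, no median, ratio, spread or count of genes moved by more than the counting error of a gene of middle count. FPKM put the median of standard subunits at 151 FPKM, and rescaling without the 100 most abundant other genes put it at 323 TPM, while ratios and spread cannot move under either. At or above 10 and 100 were 41 and 32 genes in FPKM, 47 and 33 after rescaling, and 45 and 32 with the leading transcript alone, against 45 and 33 in TPM. Shares of all genes were computed for summed TPM over the whole table only. The counts under other settings, and those by strand below, therefore have no share of all genes beside them. The leading transcript alone gave a core to regulatory ratio of 1.53, a spread of 0.53 and a median paralogue share of 8.42%. Means in place of medians gave 253 TPM for the standard subunits and 15.1% for the paralogues. On the plus strand alone, the ratio of base to lid was 0.878, the median paralogue share 5.68%, and 24, 22 and 17 of 24 genes were at or above 1, 10 and 100 TPM. On the minus strand alone, the median of standard subunits was 234 TPM, the core to regulatory ratio 1.61, the base to lid ratio 1.10 and the median paralogue share 9.19%, and 24, 23 and 16 of 24 genes were at or above these levels. Settings chosen after seeing the data included the window of 1000 to 1300 bases of implied length (core to regulatory ratio 1.22). Others were reads per gene not divided by length (core to regulatory 0.972, base to lid 1.07), and paralogues without Prosalpha1R (5.88%). A further one was Prosalpha1 with Prosalpha1R summed, for which 3 values were computed. The median of standard subunits was 244 TPM, the core to regulatory ratio 1.45 and the spread 0.35, against 0.38 unsummed. The causes were not tested. FPKM, rescaling and a single strand cannot move the share of a single paralogue. Of 32 such shares under the leading transcript and the count filter, 1 moved by over 1.5 times, that of Rpn13R with the leading transcript alone. Depth limits the lowest paralogues most, at 124 to 181 counts.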
